A study of Mus musculus with 2 samples.

Results

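The passenger arms of the let-7 family are the mature miRNAs cut from the 3′ side of the let-7 and mir-98 hairpins. The 10 members, let-7a-1-3p, let-7b-3p, let-7c-2-3p, let-7d-3p, let-7e-3p, let-7f-1-3p, let-7f-2-3p, let-7g-3p, let-7i-3p and miR-98-3p, were taken by name from the deposited tables of 2 mouse small RNA libraries, and all 10 were listed in both. They are 10 of the 1125 mature miRNAs listed in at least 1 library. The libraries came from Th17 cells, the interleukin-17-producing helper T cell state, and from control Th0 cells. Both cultures began with naive CD4+CD62L+ T cells from the spleen of female C57BL/6 mice, in medium with 10% serum. The Th17 culture lasted 6 to 7 days with 4 cytokines, 40 ng/ml of IL-6, 40 ng/ml of IL-23, 10 ng/ml of IL-1β and 2 ng/ml of TGF-β. Its antibodies were 1 µg/ml of anti-CD28 and 5 µg/ml each of anti-IL-12, anti-IL-2, anti-IFN-γ and anti-IL-4. The Th0 culture shared 3 of these antibodies at the same concentrations, against CD28, IFN-γ and IL-4, and none of the cytokines is named for it. The sources used here do not say how long Th0 cells were cultured, so culture time and Th17 conditions cannot be told apart.

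A miRNA hairpin is cut into a short duplex, and Argonaute keeps a single strand of it, the guide, while the other strand, the passenger, is mostly degraded. In the let-7 family the guide is the 5p arm, which restrains proliferation and growth programmes in many cell types and is abundant in resting lymphocytes. Several hairpins give the same guide, whereas their passenger arms mostly differ in sequence, so passenger reads tell which hairpins were cut. The steady level of a passenger arm depends on how much hairpin is made and on how long the strand survives.

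The members are shown here in 6 groups by seed, the bases at positions 2 to 8 that pair with targets, because the guides share 1 seed and the passengers do not. The seed is in capitals, and the sequences are RefSeq mature sequences of build GRCm38.p6, in which all 10 members were found. The first 5 share the seed UAUACAA.
let-7a-1-3p: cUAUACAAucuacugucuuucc
let-7c-2-3p: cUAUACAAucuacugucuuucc
let-7b-3p: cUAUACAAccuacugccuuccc
let-7f-1-3p: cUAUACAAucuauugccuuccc
miR-98-3p: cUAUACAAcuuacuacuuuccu
let-7d-3p: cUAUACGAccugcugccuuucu
let-7e-3p: cUAUACGGccuccuagcuuucc
let-7f-2-3p: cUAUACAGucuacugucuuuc
let-7g-3p: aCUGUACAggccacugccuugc
let-7i-3p: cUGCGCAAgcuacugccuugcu

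For comparison, 2 guides are given, and the 9 guides of these hairpins all carry the seed GAGGUAG.
let-7a-5p: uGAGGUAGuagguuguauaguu
let-7d-5p: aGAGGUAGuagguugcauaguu
Of the members, 9 begin with C and 1, let-7g-3p, with A, while 8 of the 9 guides begin with U and let-7d-5p begins with A. No other mouse miRNA in the RefSeq table carries the seed UAUACAA. let-7a-1-3p and let-7c-2-3p are identical over all 22 bases, so their reads cannot be assigned to a hairpin by sequence, and their counts, 89 and 94 in Th17 and 75 and 79 in Th0, were nearly equal. let-7f-2-3p differs from both at 1 base, A8G, counted from 1 at the 5′ end of let-7a-1-3p, and is 1 base shorter. let-7b-3p and let-7f-1-3p differ at 2 bases, C9U and C13U in the order let-7b-3p to let-7f-1-3p. The sources used here do not say how reads of such near-identical arms were separated.

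The Th17 library listed 1012 miRNAs with 11975371 reads and the Th0 library 986 miRNAs with 8358010 reads. The labels speak of triplicates, but each table holds 1 column of reads, so no test of the conditions was possible and the spread between cultures is unknown. Each ratio carries a 95% counting interval. It describes the 2 libraries alone, and PCR copies are not independent molecules, so it covers counting error only. Levels are given as CPM, the reads of a miRNA scaled to the sum of all listed reads of its library. The miRNAs taken as T cell markers were miR-181a-5p, miR-150-5p, miR-142a-5p, miR-142a-3p and miR-155-5p, and 5 of 5 were listed in both libraries. They summed to 133180 CPM in Th17 and 95954 CPM in Th0. miR-142a is a miRNA of the blood lineage, and its 5p arm alone had 789153 reads in Th17 and 487665 in Th0. The sum therefore does not single out T cells among blood cells. In Th17, the 4 stromal markers summed to 19.6 CPM, the 2 endothelial ones to 85.9 CPM, the 5 epithelial ones to 208 CPM and the 6 liver, muscle and neural ones to 6.01 CPM with 1 at 0, and the myeloid and erythroid markers stood at 6.76 and 2.00 CPM. In Th0, the stromal markers summed to 2.15 CPM, the endothelial ones to 191 CPM, the epithelial ones to 387 CPM and the liver, muscle and neural ones to 14.1 CPM with 4 at 0, and the myeloid and erythroid markers stood at 3.35 and 0.718 CPM. The part of other cells in the results below was not tested. In bulk RNA, fewer cells that carry a miRNA and less of it per cell cannot be told apart.

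The passenger arms were a small and uneven class, carried by let-7d-3p. Together they had 20910 reads (1746 CPM) in Th17 and 15939 reads (1907 CPM) in Th0, which is 0.175% of listed reads in Th17 and 0.191% in Th0. The sum in Th17 was 0.916 times that in Th0 (interval 0.897 to 0.935). let-7d-3p alone made 87.0% of the passenger reads in Th17 (exact binomial interval 86.5 to 87.4%) and 86.2% in Th0 (85.6 to 86.7%). Without it the other 9 summed to 227 CPM in Th17 and 264 CPM in Th0, a ratio of 0.861 (0.814 to 0.911). That ratio leans on 1 member, miR-98-3p, which held 963 of these 2719 reads in Th17 and 1039 of 2204 in Th0. Its own ratio was 0.647, members on both sides of 1 are among the rest, and the sum without it was not taken. The members spanned 2021-fold in level in Th17 and 858-fold in Th0, from let-7f-2-3p at the bottom to let-7d-3p at the top.

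let-7d-3p had 1519 CPM in Th17 and 1643 CPM in Th0, and ranked 56 among the miRNAs of the Th17 library. miR-98-3p, from the X-linked hairpin Mir98, followed with 80.4 CPM in Th17 and 124 CPM in Th0. These 2 members kept their places at the top of the order in both libraries. let-7f-1-3p had 52.4 CPM in Th17 and 45.7 CPM in Th0. let-7i-3p had 47.1 CPM in Th17 and 51.1 CPM in Th0, so that these 2 neighbours stood in opposite order in the libraries, with overlapping counting intervals in each. let-7g-3p had 19.3 CPM in Th17 and 14.7 CPM in Th0. The remaining 5 had a mean below 10 CPM. let-7c-2-3p had 7.85 CPM in Th17 and 9.45 CPM in Th0. let-7a-1-3p had 7.43 CPM in Th17 and 8.97 CPM in Th0. let-7b-3p, at 7.77 CPM in Th17 and 5.26 CPM in Th0, lay within the intervals of let-7c-2-3p and let-7a-1-3p in Th17. let-7e-3p, from the hairpin between Mir99b and Mir125a, had 4.01 CPM in Th17 and 2.27 CPM in Th0. let-7f-2-3p had 0.752 CPM in Th17 and 1.91 CPM in Th0, on 9 reads in Th17 and 16 in Th0.

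**Figure D1:**
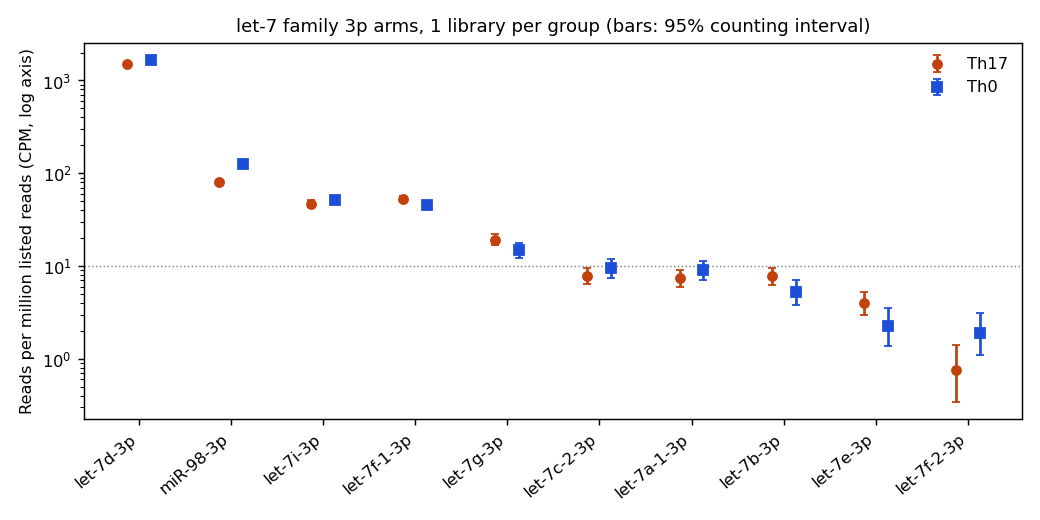
Level of each let-7 family 3p arm in the Th17 library (circles) and the Th0 library (squares), in CPM on a log axis, with 95% exact counting intervals; the dotted line marks 10 CPM. let-7d-3p stands at 1519 CPM in Th17 and 1643 CPM in Th0, and 5 members lie below the line in both.

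Between the libraries the members moved both ways by modest amounts. Of the 10, 4 had an interval of the Th17 over Th0 ratio above 1, 3 below 1 and 3 spanned 1. Over all 1125 listed miRNAs, 16.2% had an interval above 1 and 19.6% below 1. Only 5 members reached a mean of 10 CPM, of which 2 were above 1 and 2 below, against 40.6% above and 47.7% below among the 298 miRNAs at that level. None of these 5 was at least 2-fold different with an interval excluding 1, whereas 19.8% of the 298 were. The median log2 ratio of the 5 was -0.11, beside -0.080 for the 298 miRNAs and -0.041 for the 89 minor arms at 10 CPM or more, the minor arm being the arm of a hairpin with fewer reads. The share of the 5 members called in each direction was thus near that of the 298 miRNAs at the same level. let-7a-1-3p and let-7c-2-3p fell below 10 CPM as separate names. Joined as 1 sequence they had a mean of 16.9 CPM, with an interval of the ratio that spanned 1. Over the resulting 6 the median log2 ratio was -0.11.

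miR-98-3p showed the clearest difference: 963 reads in Th17 and 1039 in Th0, despite the larger Th17 library, gave a ratio of 0.647 (0.592 to 0.707), or 1.55-fold lower in Th17. let-7d-3p was lower by a small amount, with a ratio of 0.924 (0.904 to 0.945). let-7f-2-3p had a ratio of 0.393 (0.153 to 0.943), the only member beyond 2-fold, on 9 reads in Th17 and 16 in Th0. On the other side let-7e-3p had a ratio of 1.76 (1.02 to 3.18) on 48 reads in Th17 and 19 in Th0, and let-7b-3p of 1.48 (1.02 to 2.16) on 93 reads in Th17 and 44 in Th0. let-7g-3p was 1.31-fold higher in Th17 (1.05 to 1.64), on 231 reads in Th17 and 123 in Th0. let-7f-1-3p was 1.15-fold higher (1.01 to 1.31), on 628 reads in Th17 and 382 in Th0. All 4 higher members lost that call under a scaling total that omits the 10 most abundant miRNAs, which moved the median of all 298 miRNAs by -0.13 on the log2 scale. let-7i-3p had a ratio of 0.922 (0.812 to 1.05), which that scaling moved to 0.843 (0.742 to 0.958), so that 4 members were below 1 and 6 spanned 1. Scaled by all listed reads, the others whose intervals spanned 1 were let-7a-1-3p at 0.828 (0.602 to 1.14) and let-7c-2-3p at 0.830 (0.609 to 1.13). The last 2, joined as the same sequence, had 183 reads in Th17 and 154 in Th0, a ratio of 0.829 (0.666 to 1.03).

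Members with the same seed did not share a direction. The 5 with UAUACAA summed to 156 CPM in Th17 and 194 CPM in Th0, a ratio of 0.805 (0.753 to 0.861). Without miR-98-3p, the other 4 summed to 75.5 CPM in Th17 and 69.4 CPM in Th0, a ratio of 1.09 (0.979 to 1.21) whose interval spans 1. This seed took 8.93% of the passenger reads in Th17 and 10.2% in Th0.

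The guide arms of the same hairpins were higher in Th17 than in Th0. All 9 guides had intervals above 1, with ratios from 1.02 for let-7d-5p to 1.76 for let-7e-5p and a median log2 ratio of 0.25. Their sum was 90763 CPM in Th17 and 79839 CPM in Th0, a ratio of 1.14 (1.13 to 1.14). Among the 298 miRNAs at a mean of 10 CPM or more, 40.6% had an interval above 1 and 47.7% below. The median log2 ratio of the 298 was -0.080. The direction of 3 guides, miR-98-5p, let-7f-5p and let-7d-5p, turned with the scaling: without the 10 most abundant miRNAs in the total, 6 intervals were above 1 and 3 below. With the authors' own totals 8 of the 9 were above 1. The ratio of 3p to 5p reads within a hairpin does not depend on the scaling, and it is given next.

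**Figure D2:**
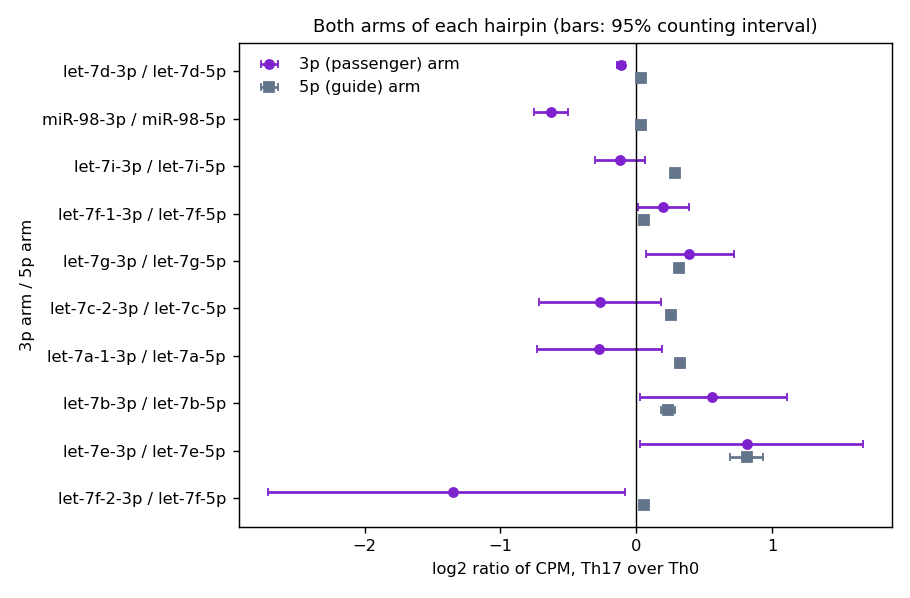
log2 ratio of CPM, Th17 over Th0, for the 3p arm (circles) and the 5p arm (squares) of each hairpin, with 95% exact counting intervals; let-7f-5p appears in 2 rows because 2 hairpins give it. The 5p arms lie right of 0, between the ratios of 1.02 and 1.76, while the whole intervals of miR-98-3p, let-7d-3p and let-7f-2-3p lie left of it.

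Relative to their guides, passenger arms were lower in Th17 or not distinguishable. Over the family, 3p reads were 1.89% of 3p plus 5p reads in Th17 (1.86 to 1.91%) and 2.33% in Th0 (2.30 to 2.37%), a difference of -0.445 points. Without let-7d, which holds most of the 3p reads, the shares were 0.262% in Th17 (0.252 to 0.272%) and 0.347% in Th0 (0.333 to 0.362%), a difference of -0.0855 points. Of the 3p reads left, miR-98-3p made 963 of 2719 in Th17 and 1039 of 2204 in Th0, and the share without mir-98 was not computed. With let-7d included, the odds of a read coming from the 3p arm were 0.805 times as high in Th17 as in Th0 (0.789 to 0.822). These pooled odds also depend on how reads divide among hairpins. let-7d, the source of most 3p reads, had an odds ratio of 0.903 by itself. Its guide had a Th17 over Th0 ratio of 1.02, against 1.25 for let-7a-5p and 1.22 for let-7i-5p. Member by member, 6 had an odds ratio with an interval below 1, 4 spanned 1 and none was above 1. The guide of let-7a-1-3p, let-7c-2-3p, let-7f-1-3p and let-7f-2-3p comes from 2 hairpins each, so for these 4 a change in the other hairpin would also move the odds. let-7a-1-3p and let-7c-2-3p, both with an interval below 1, are 1 sequence whose reads cannot be assigned to a hairpin. Joining hairpins that share the name of a mature miRNA keeps these 2 arms in separate groups. It leaves 9 let-7 hairpin groups, of which 5, both of these included, had an interval below 1. The same held for 24.6% of the 167 hairpin groups with at least 100 reads in each library and both arms seen, and 21.6% had an interval above 1. The median log2 odds ratio was -0.15 for the 9 let-7 groups and 0.031 for the 158 others. With 1 library per group and members that share hairpin clusters, this difference was not tested.

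Among hairpins whose guide comes from that hairpin alone, mir-98 moved most. Its 3p share was 4.16% in Th17 (3.90 to 4.42%) and 6.44% in Th0 (6.06 to 6.83%), an odds ratio of 0.630 (0.575 to 0.690), with miR-98-5p at 22209 reads in Th17 and 15101 in Th0. The guide itself had a ratio of 1.03 (1.01 to 1.05). Of the 167 hairpin groups, 22 had a smaller odds ratio than mir-98. let-7i followed, with a 3p share of 0.197% in Th17 (0.181 to 0.214%) and 0.260% in Th0 (0.236 to 0.286%), an odds ratio of 0.755 (0.665 to 0.859). For let-7d the share was 26.3% in Th17 (25.9 to 26.6%) and 28.3% in Th0 (27.9 to 28.7%), an odds ratio of 0.903 (0.879 to 0.927). let-7g, at 0.191% in Th17 and 0.181% in Th0, had an odds ratio of 1.06 (0.845 to 1.33). let-7b, at 1.08% in Th17 and 0.861% in Th0, had one of 1.25 (0.866 to 1.84), and let-7e, at 2.41% in each library, one of 1.00 (0.574 to 1.82). Of these 3 intervals, that of let-7e includes the odds ratio of let-7i, and those of let-7g and let-7b do not. The largest shift of a let-7 hairpin was that of mir-98, -2.28 points. A shift of 10 percentage points, seen in 2.99% of the 167 groups, was not reached. Only let-7d had a 3p share above 10% in either library, so no other let-7 hairpin could fall by that much.

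**Figure D3:**
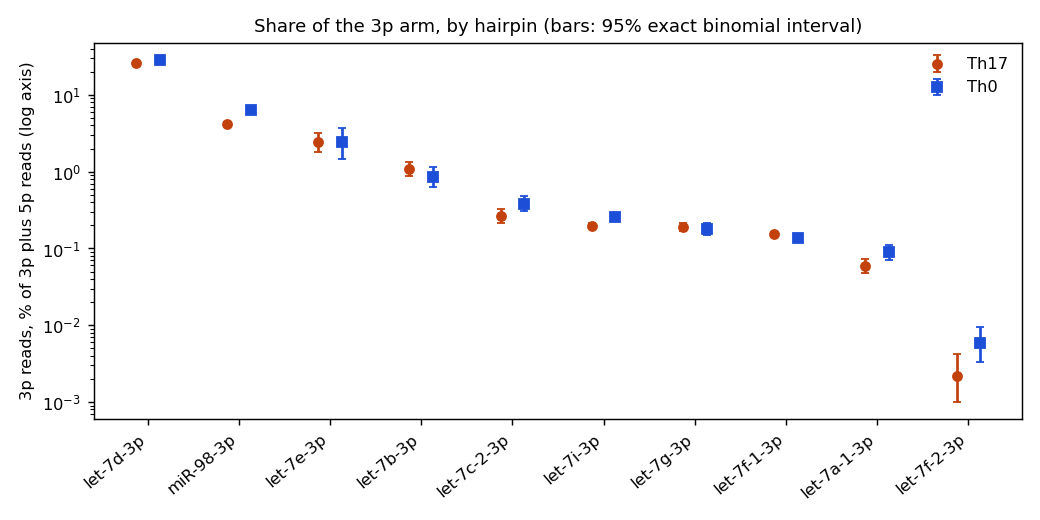
Share of 3p reads among 3p plus 5p reads of each hairpin in the Th17 library (circles) and the Th0 library (squares), in percent on a log axis, with 95% exact binomial intervals. let-7d stands at 26.3% in Th17 and 28.3% in Th0, mir-98 at 4.16% in Th17 and 6.44% in Th0, and the share of let-7f-2-3p is the lowest in both libraries.

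The hairpins differed far more from each other than between the libraries. let-7d gave 2.81 guide reads per passenger read in Th17 and 2.54 in Th0. In mir-98 there were 23.1 in Th17 and 14.5 in Th0. let-7i gave 507 guide reads per passenger read in Th17 and 383 in Th0, although it is among the most abundant guides of the family. The 2 hairpins with the largest 3p shares are printed with their mature arms in capitals, first the 5p and then the 3p arm, as RNA of the strand that is transcribed. Mirlet7d lies at chr13:48536012-48536114 on the minus strand and Mir98 at chrX:151913214-151913321 on the plus strand (GRCm38, the assembly of mm10).
Mirlet7d: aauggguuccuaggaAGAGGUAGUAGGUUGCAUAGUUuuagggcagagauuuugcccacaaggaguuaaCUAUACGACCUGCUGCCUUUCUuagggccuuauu
Mir98: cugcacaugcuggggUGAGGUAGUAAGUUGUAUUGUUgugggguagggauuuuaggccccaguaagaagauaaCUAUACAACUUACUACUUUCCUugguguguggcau
let-7d-5p is the only guide of the 9 that does not begin with U, while miR-98-5p does. Whether the first base bears on the 3p share was not tested. Across all 167 hairpin groups the median share of the minor arm was 1.89% in Th17 and 2.00% in Th0, and 6 of the 9 let-7 groups lay below that median in each library. In contrast, only 21 groups in Th17 and 19 in Th0 had a minor arm share above that of let-7d.

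**Figure D4:**
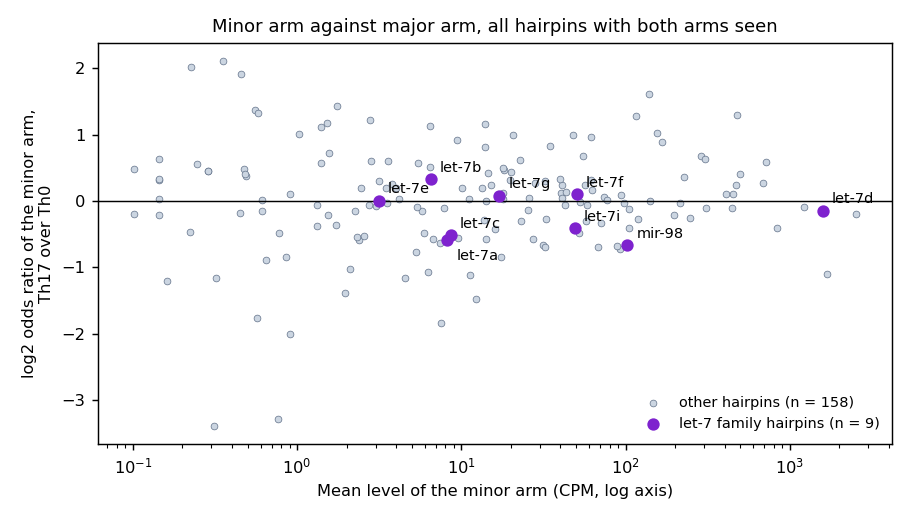
log2 odds ratio of the minor arm, Th17 over Th0, against the mean level of the minor arm in CPM on a log axis, for 9 let-7 family hairpin groups (large points) and 158 others (small points). The let-7 points lie within the cloud, with mir-98 the lowest of them at an odds ratio of 0.630 and let-7b the highest at 1.25.

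Because most passenger arms belong to a single hairpin, they also show which loci were cut. On chromosome 13, Mirlet7a-1 (48538179 to 48538272), Mirlet7f-1 (48537829 to 48537917) and Mirlet7d lie on the minus strand within 3 kb, in exons of the lincRNA 6720427I07Rik. Their passenger arms differed in level by 2 orders of magnitude although they lie in the same transcript model, with let-7d-3p at 1519 CPM, let-7f-1-3p at 52.4 CPM and let-7a-1-3p at 7.43 CPM in Th17. let-7a-1-3p cannot be told from let-7c-2-3p of chromosome 15, so its reads do not identify the chromosome 13 hairpin. These 2 arms joined had 15.3 CPM in Th17. On chromosome X, Mirlet7f-2 (151912346 to 151912428) and Mir98 lie 785 bases apart in an intron of Huwe1, which encodes a ubiquitin ligase. Both passenger arms of this intron were lower in Th17, with ratios of 0.393 for let-7f-2-3p and 0.647 (0.592 to 0.707) for miR-98-3p. The ratio of let-7f-2-3p rests on 9 reads in Th17 and 16 in Th0 (0.153 to 0.943). On chromosome 13, in contrast, let-7f-1-3p was above 1 and let-7d-3p below. Among the reads of the 2 let-7f passenger arms, let-7f-1-3p made 98.6% in Th17 (97.3 to 99.4%) and 96.0% in Th0 (93.6 to 97.7%). The guide let-7f-5p cannot be divided between its 2 hairpins in the same way unless both lose their passenger strand at the same rate, which was not tested.

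On chromosome 15, Mirlet7c-2 (85706603 to 85706697) and Mirlet7b (85707319 to 85707403) lie 621 bases apart on the plus strand, in exons of the noncoding transcript Lncppara. let-7b-3p was on the higher side in Th17, and let-7c-2-3p, which cannot be told from let-7a-1-3p, spanned 1. Mirlet7g (chromosome 9, 106178840 to 106178927, plus strand) lies in an intron of Wdr82, and Mirlet7i (chromosome 10, 122985640 to 122985724, minus strand) overlaps an exon of the transcribed pseudogene D630033A02Rik.

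On chromosome 17, Mirlet7e (17830352 to 17830444, plus strand) lies in an intron of Spaca6, 94 bases from Mir99b and 367 bases from Mir125a, and the arms of this cluster were mostly higher in Th17. let-7e-3p and let-7e-5p had the same ratio, 1.76. miR-99b-5p, a regulator of mTOR signalling genes in other cell types, had 2219 CPM in Th17 and 1084 CPM in Th0, a ratio of 2.05 (2.00 to 2.10), and miR-125a-5p had 767 CPM in Th17 and 571 CPM in Th0, a ratio of 1.34 (1.30 to 1.39). Their passenger arms moved less: miR-99b-3p had a ratio of 1.37 (1.08 to 1.77) and miR-125a-3p of 0.867 (0.619 to 1.22). The passenger share of mir-99b was 0.736% in Th17 and 1.09% in Th0, an odds ratio of 0.671 (0.525 to 0.864). That of mir-125a was 0.885% in Th17 and 1.36% in Th0, an odds ratio of 0.646 (0.460 to 0.909). For let-7e, on 48 passenger reads in Th17 and 19 in Th0, the interval of 0.574 to 1.82 includes both values.

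Among other let-7 hairpins, the passenger arms let-7a-2-3p from chromosome 9 and let-7c-1-3p from chromosome 16 were listed in neither library. A count of 0 allows up to 3 reads, or 0.251 CPM in Th17 and 0.359 CPM in Th0, for each. Neighbours on the same strand were also scarce. Near Mirlet7c-1, miR-99a-5p had 29 reads in Th17 and 1 in Th0. Near Mirlet7a-2, miR-100-5p had 82 reads in Th17 and 23 in Th0. miR-125b-5p, whose hairpins lie within 100 kb at both places, had 62 reads in Th17 and 4 in Th0. These neighbours had intervals of the ratio above 1, from counts too low to give a precise fold.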

How the data were processed

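Per the labels, total RNA went into TruSeq small RNA libraries, which were gel-purified and sequenced on an Illumina HiSeq instrument. The submitters' processing notes name mm10 as the genome build. The sources used here give no trimming tool, aligner, miRNA release or rule for multiply matching reads. The authors deposited, for each library, read counts per mature miRNA, not normalized, and TPM values. The deposited TPM values are the counts divided by 1 total per library, 13070648 in Th17 and 9072995 in Th0, and were used only as an alternative scaling. Counts were scaled to the sum of listed reads (CPM), and a missing miRNA counted as 0. Ratio intervals are exact and conditional on both counts (Clopper-Pearson, 95%), and arm odds ratios carry Fisher-type exact intervals from R 4.3.3. The minimum mean was 10 CPM, and 0.5 CPM was added before log2 ratios behind medians. Alternatives used TMM factors (edgeR 4.0.16) and size factors (DESeq2 1.42.0). Intervals were tested on simulated Poisson and binomial counts, which hold no PCR copies and no spread between cultures. Positions and sequences are from RefSeq GRCm38.p6, and hosts from GENCODE M21. All 10 members, their 5p arms, the other let-7 hairpins and the miR-99, miR-100 and miR-125 neighbours are named. The members and lists were chosen with earlier results of these data known.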

Additional observations from a re-analysis of the deposited data

Results flagged for a closer look

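For 2 let-7 miRNAs with no arm in their name, no value is given above, though they count among the 1125 listed miRNAs. let-7j had 499.6 CPM in Th17, above the 395 CPM of the Th0 control (ratio 1.26, interval 1.21 to 1.32). Its first 22 bases differ from let-7i-5p at 1 base, G8U in the order let-7i-5p to let-7j, and its reads were 2.09% of those of let-7i-5p in Th17 and 2.02% in Th0. let-7k had 0.752 CPM in Th17, on 9 reads, and 0 reads in Th0, and the exact counting interval of its Th17 over Th0 ratio starts at 1.38. Whether reads of other let-7 guides contribute to either was not tested.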

How the results depend on the processing

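No paired analysis was possible because each group has 1 library, and for the same reason no replicate could be left out. The summed passenger ratio of 0.916 became 0.967 with DESeq2 size factors, 0.837 without the 10 most abundant miRNAs in the total, and 0.861 without let-7d-3p. The median log2 ratio of -0.11 became -0.035 with DESeq2 size factors, -0.24 without the 10 most abundant, and -0.37 over the 2 members at 100 CPM or more. The count of members beyond 2-fold, 0 at 10 CPM, was 1 with no minimum (let-7f-2-3p). The difference in 3p share of the family, -0.445 points, became -0.0855 points without let-7d and -1.15 points over the 6 hairpins with a guide of their own. The median arm difference of -0.15 on the log2 scale over the 5 members at 10 CPM became -0.28 both over the 4 of them whose hairpin has a guide of its own and over all 10 members. In an alternative chosen after seeing the data, it was -0.072 over all 6 hairpins with a guide of their own. None of these values changed direction, but none of these alternatives left out miR-98-3p. The calls of single members did change: 4 above 1 and 3 below became 0 above and 4 below without the 10 most abundant miRNAs in the total. With TMM factors or the authors' totals every value of the members stayed within its counting interval. Depth limits let-7f-2-3p, let-7e-3p and let-7b-3p, whose intervals span more than 2-fold from end to end.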
